A study of Mus musculus with 12 samples.

Results

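The genes described here encode the subunits, assembly chaperones and activators of the proteasome, the protein-degrading machine of the cell. They are the rows of the count table whose symbol starts with Psma, Psmb, Psmc, Psmd or Psme followed by a number. Psmb8, Psmb9 and Psmb10, the inducible immunoproteasome subunits, were set aside as a comparison. This gave 40 genes of 55376 symbols. Levels are given as CPM, read counts scaled by library size to a common total. Genes reaching 1 CPM in 4 or more of the 12 samples were tested, which 39 of the 40 did, within 17716 genes tested in all. The exception was Psmb11, a catalytic subunit of thymic epithelium, with between 0 and 433 counts per sample.

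The proteasome is built from separable particles. The 20S core is a barrel of alpha and beta rings, and its beta subunits Psmb5, Psmb6 and Psmb7 carry the chymotrypsin-like, caspase-like and trypsin-like sites. The 19S regulatory particle caps the barrel: its base unfolds proteins with a ring of ATPases (Psmc genes), and its lid removes ubiquitin chains. PA28 and PA200, encoded by the Psme genes, are alternative caps that need no ATP, and interferons raise PA28 alpha and beta together with the immunoproteasome. The lid and the COP9 signalosome, the complex that JAB1 belongs to, are structural relatives, and JAB1 corresponds to the lid enzyme Psmd14.

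RNA-Seq was performed on O1+ CD45- oligodendrocytes sorted from the brains of mice at postnatal day 40, labelled as C57BL/6. The 3 genotypes were wild type (WT), Cnp-Cre Jab1 fl/fl (KO) and Cnp-Cre Jab1 fl/fl p21-/- (dKO), with 4 samples each. Each sample came from 2 different brains, so the replicates were separate animals. In both mutants Cre was driven by the Cnp promoter, which is active in myelinating glia, so that Jab1 (Cops5), the catalytic subunit of the COP9 signalosome, was deleted in that lineage. The double mutant lacked, in addition, p21 (Cdkn1a) in all cells. The study's methods give C57Bl/6J for the floxed and Cre lines and 129S6/SvEvTac, after backcrosses, for the Cdkn1a-null line, so strain origin and p21 loss cannot be told apart in dKO. The WT samples are labelled wild type with no further allele, and no p21-/- group without Cre was analysed here.

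Samples held between 61485556 and 153495112 counts. A list of 9 oligodendrocyte genes including Mbp and Mog summed to 20999 to 47835 CPM in WT, 6221 to 28991 CPM in KO and 10195 to 27515 CPM in dKO. The sorted cell type was thus present in every sample, but such sums do not give its share. Choroid plexus genes summed higher than this list in KO 3 (24248 against 6221 CPM), KO 4, dKO 3 and dKO 5. In the other samples they summed lower. Cops5 itself was at 102.9 ± 39.7 CPM in WT, 66.9 ± 18.0 in KO and 58.6 ± 21.5 in dKO (SD, n = 4), and the library labelled WT 3, at 46.3 CPM, lay within the KO range. Cdkn1a, counted over the whole gene, was still read at 64.7 to 103 CPM in dKO, against 16.0 to 85.3 CPM in WT and 379 to 637 CPM in KO. These counts do not separate the deleted exons from the rest of either gene. In sorted bulk RNA, fewer cells of a type and less RNA per cell cannot be told apart.

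The library labelled WT 3 was low in most of these genes. Of 36 members (all tested but Psma8, Psme1 and Psme2), 29 had their lowest WT level there and 26 their lowest level of all 12 samples. The 7 exceptions were Psmd1, Psmd2, Psmd3, Psmd5, Psme3, Psme4 and Psmb7. Shorter transcripts were further below the other WT samples: the median deviation was -1.12 on the log2(CPM + 1) scale for the 21 members with under 2000 exon bases and -0.75 for the 15 longer ones. Across the 36 genes, deviation and exon length had a Spearman rho of 0.57, and across all 17558 tested genes with a length it was 0.41. The double-mutant library dKO 2 had a similar slope over the members (0.56) and a weaker one over all genes (0.21). Its median deviation was -0.81 for the shorter and -0.23 for the longer members. Of the 36 members, 33 lay below the other samples of the genotype in WT 3, 30 in dKO 2 and 30 in KO 3. Values without WT 3 are given beside the main results against WT. Those without dKO 2 or KO 3 are not given singly.

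**Figure D1:**
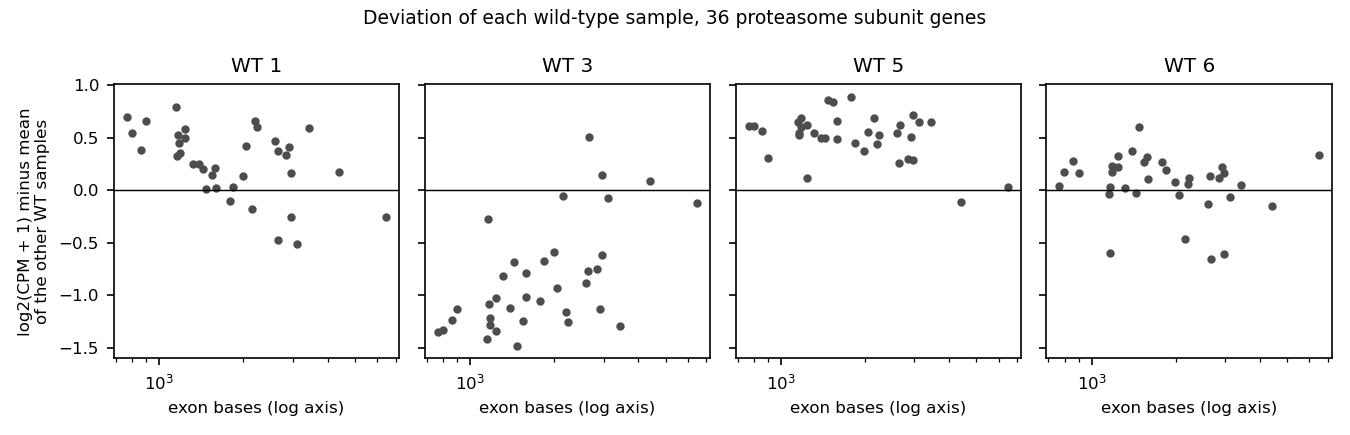
Difference on the log2(CPM + 1) scale between each WT sample and the mean of the other 3 (vertical axis) against merged exon length in bases (horizontal axis, log scale), for 36 proteasome subunit genes, 1 point per gene. In WT 3, 33 of the 36 points lie below 0, and the shorter genes lie lowest.

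In WT oligodendrocytes the proteasome genes were well expressed. Levels between genes are compared as CPM per kilobase of merged exon. The median over the 39 tested members was 75.1 CPM per kb, against 4.58 for the 17560 tested genes with a length, and 38 of the 39 lay above the latter. The summed level of all 40 genes was 5167 ± 1436 CPM, or 0.517 ± 0.144% of the scaled library (SD, n = 4).

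Among the members, the highest levels in WT belonged to beta ring genes. Psmb6, the caspase-like subunit, stood at 382 ± 143 CPM per kb, Psmb2, a structural beta subunit, at 244 ± 84.4 and Psmb3, its ring neighbour, at 203 ± 81.5 (SD, n = 4). Psmb6 was above Psmb2 and Psmb2 above Psmb3 in each of the 12 samples. The catalytic subunits were far from equal: Psmb5 was at 110 ± 38.0 CPM per kb and Psmb7 at only 27.1 ± 7.48, the lowest of the beta ring genes tested. Psmb7 exons overlap those of Nek6 on the opposite strand.

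The 20S ring genes without Psma8 had a median of 97.2 CPM per kb, the 19S base genes 100 and the lid genes 63.1. At the low end were Psmd5, a chaperone that assembles the base, at 13.7 ± 1.15 CPM per kb, and Psme4, which encodes PA200, at 5.54 ± 0.773. Psma8, the alternative alpha subunit of germ cells, was at 0.318 ± 0.454. Psma8 was counted in 2 of 4 WT samples (180 and 53 counts), in KO 4 alone of the KO samples (939 counts) and in 3 of 4 dKO samples (178 to 937 counts). The order of the members was similar across genotypes, with a Spearman rho across the 39 genes of 0.87 between WT and KO and 0.91 between WT and dKO. These genes are not independent points, and the same libraries stand behind them all.

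**Figure D2:**
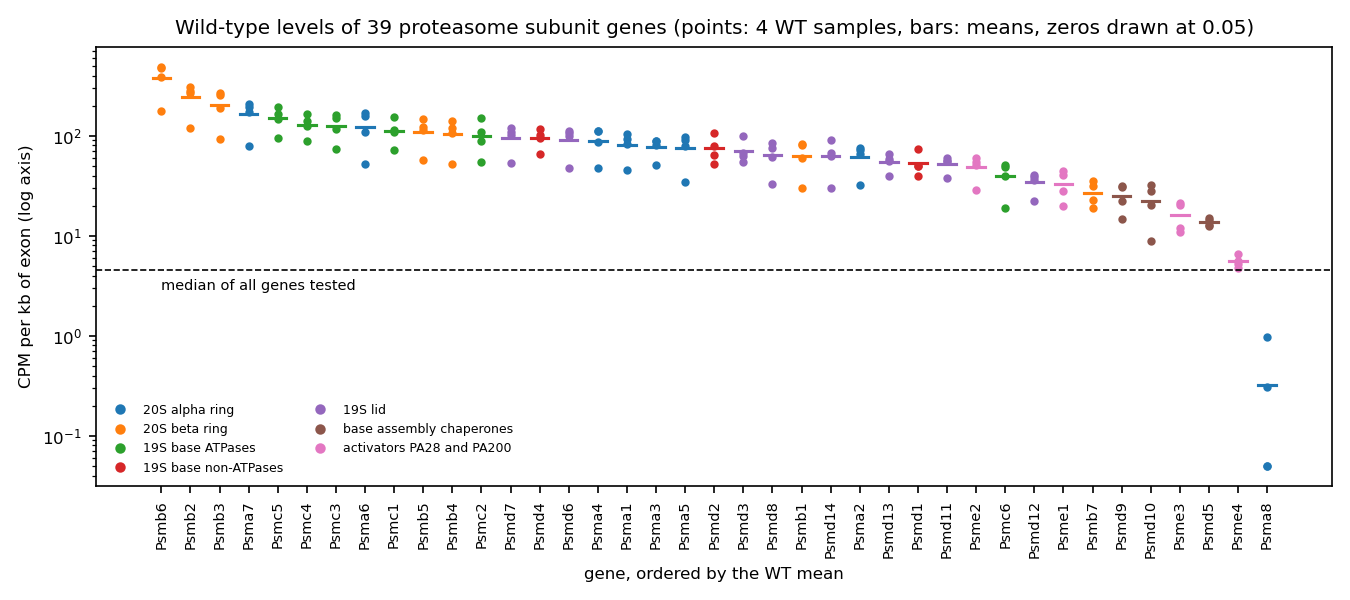
Level in CPM per kb of merged exon (vertical axis, log scale) of 39 proteasome subunit genes in the 4 WT samples, ordered by their mean (bar), with zeros drawn at the lower edge. All means but that of Psma8 lie above 4.58 CPM per kb, the median of all tested genes (dashed line).

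The comparison of Jab1 mutant with WT oligodendrocytes asked how the levels of these genes differed between the 2 genotypes. Of the 39 tested members only the genes of the PA28 alpha/beta activator were called higher, Psme1 at 3.80-fold and Psme2 at 2.92-fold. The genes of the 20S core, the 19S base, the lid and the base chaperones did not pass the test in either direction. The test was edgeR's quasi-likelihood test with Benjamini-Hochberg adjustment. It called 2 of 39 members higher and 0 lower, against 5.19% of all genes higher and 2.46% lower. The share of members called higher was thus near that of all genes. At an unadjusted p below 0.05 the counts were also 2 and 0, against 13.2% and 9.3% of all genes. DESeq2 called the same 2 genes higher and none lower, against 9.61% and 5.71% of the genes it gave an adjusted p. Members' estimates were closely spaced, with quartiles at -0.10 and 0.29 on the log2 scale, against -0.57 and 0.79 for all genes tested. Their median SE was also smaller, at 0.34 against 0.53, so the 2 spreads are not compared at like precision.

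**Figure D3:**
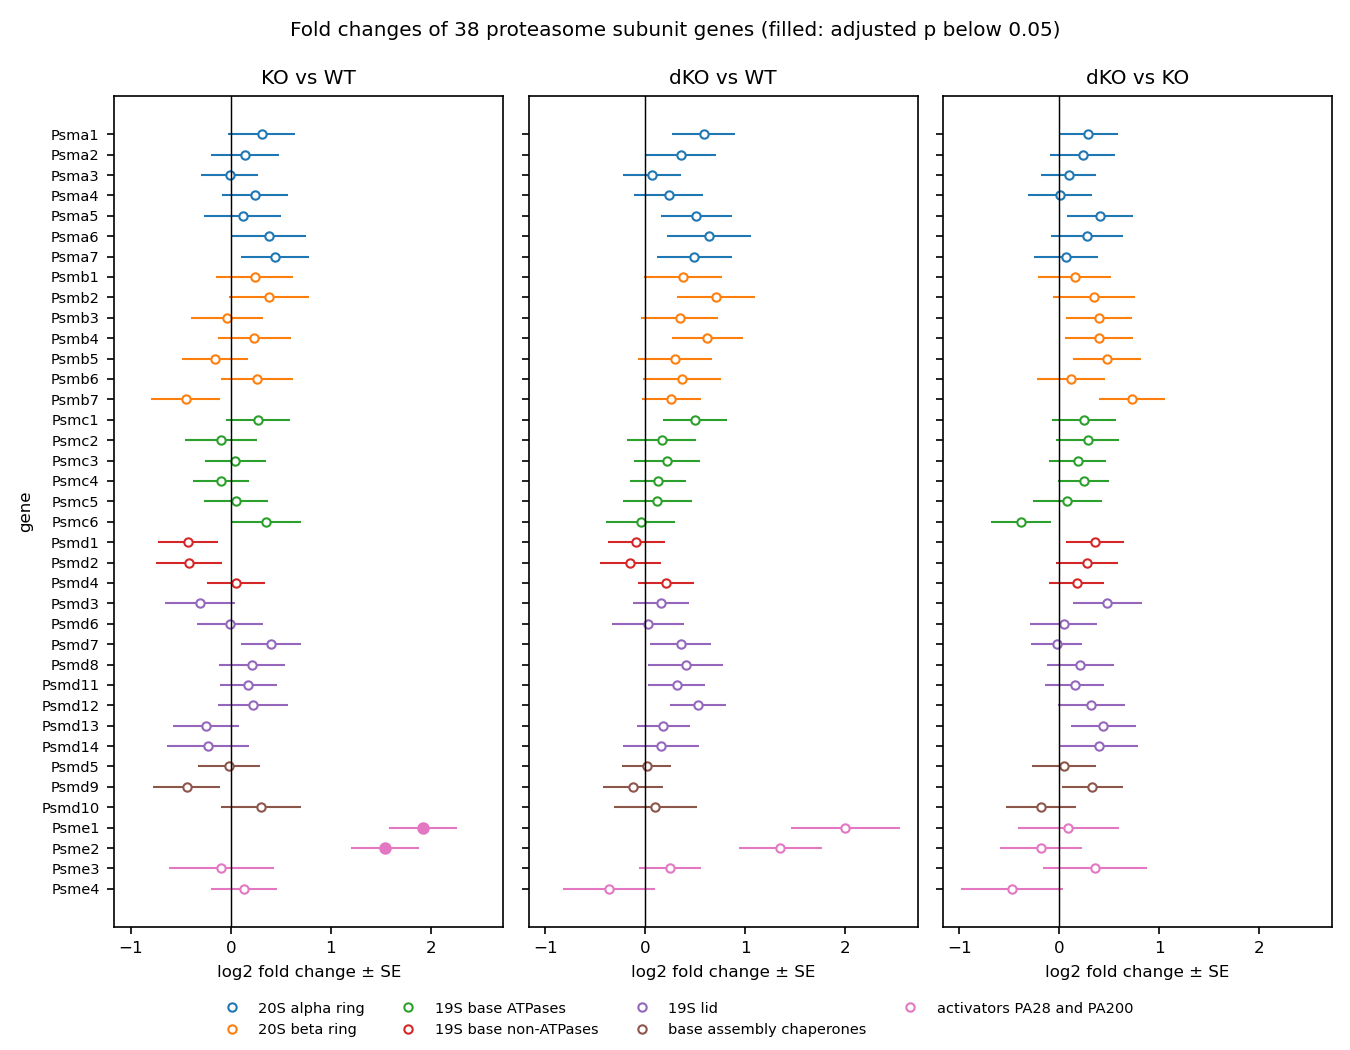
Log2 fold change with its standard error (horizontal axis) of 38 tested proteasome subunit genes (vertical axis, coloured by role, Psma8 not drawn) in the 3 comparisons, from fits of 4 against 4 samples. Filled points, adjusted p below 0.05, are Psme1 and Psme2 in KO against WT. Both are also the points farthest right in dKO against WT.

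None of the catalytic trio of the core was called. Psmb6 was at 376, 142, 390 and 311 CPM in WT 1, 3, 5 and 6 and at 292, 471, 284 and 418 CPM in KO 1 to 4. The log2 fold change was 0.27 (SE 0.36, 95% interval -0.52 to 1.05, adjusted p = 0.727), and 0.014 without WT 3. The groups overlapped, and WT 3 was the lowest sample.

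Psmb5, the chymotrypsin-like subunit and the one blocked by bortezomib, was at 133, 51.8, 111 and 102 CPM in WT and at 97.0, 114, 77.0 and 67.1 CPM in KO (log2 fold change -0.16, SE 0.33, 95% interval -0.89 to 0.56, and -0.39 without WT 3). Psmb7, the trypsin-like subunit, was at 36.3, 26.4, 40.9 and 22.1 CPM in WT and at 21, 34.3, 17.9 and 18.8 CPM in KO. Its estimate of -0.45 (SE 0.35, adjusted p = 0.497, and -0.54 without WT 3) was the lowest of all members. KO 2 lay among the WT samples, and the other KO samples were below all WT samples.

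Over the 14 tested core genes without Psma8, 10 estimates were above 0 and the median was 0.24. Without WT 3, 6 of 14 were above 0 and the median was -0.01. Among the 17 genes of the 19S particle, 9 estimates were above 0 (median 0.05), and 5 without WT 3 (median -0.15). These signs changed without WT 3, and not only there. Without KO 2, 8 of 14 core and 6 of 17 19S estimates were above 0 (medians 0.09 and -0.09). Under limma-voom, another test, with all samples kept, 6 of 14 and 5 of 17 were above 0.

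Within the 19S base, Psmd4, a ubiquitin receptor, was at 173, 120, 216 and 189 CPM in WT and at 178, 239, 149 and 159 CPM in KO (log2 fold change 0.05, SE 0.29, and -0.11 without WT 3). Psmd1, a base scaffold subunit, had an estimate of -0.43 (SE 0.30, adjusted p = 0.453, and -0.48 without WT 3), the smallest adjusted p of the 36 other members. In the lid, Psmd14, the deubiquitinase related to JAB1, was at 96.5, 46.4, 139 and 103 CPM in WT and at 60.2, 136, 86.2 and 46.5 CPM in KO. Its estimate was -0.23 (SE 0.41, 95% interval -1.12 to 0.67, and -0.48 without WT 3), and the groups overlapped across most of their range. Psmd9, a chaperone of base assembly, had an estimate of -0.44 (SE 0.34, adjusted p = 0.493, and -0.64 without WT 3).

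For those 36 members, estimates ran from -0.45 to 0.44 and their 95% intervals from -1.24 to 1.26. None was called by DESeq2 and none had an unadjusted p below 0.05. Their median SE was 0.34.

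Psme1 encodes PA28 alpha, which forms with PA28 beta (Psme2) a ring that opens the core for the production of antigenic peptides. Psme1 was at 44.8, 21.9, 31.2 and 49.4 CPM in WT 1, 3, 5 and 6 and at 126, 104, 137 and 191 CPM in KO 1 to 4. Every KO sample was above every WT sample. The log2 fold change was 1.92 (SE 0.34, edgeR adjusted p = 0.00788).

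Psme2 was at 49.8, 28.0, 53.9 and 58.2 CPM in WT and at 194, 118, 92.3 and 149 CPM in KO, again with no overlap. Its log2 fold change was 1.54 (SE 0.34, edgeR adjusted p = 0.0197). Without WT 3 both genes were still called, Psme1 at 1.73 (adjusted p = 0.0201) and Psme2 at 1.34 (adjusted p = 0.0408). Psme2 lost its call without WT 1, KO 1 or KO 4 (adjusted p from 0.0504 to 0.0558). Psme2 reads may be shared with Psme2b, a retrogene copy with 99.4% identity over 794 bases, which held 5.15% as many counts as Psme2. Of the other members, Psma4 had the most counted copy, Gm6542 at 7.68%, and Psma3, Psma5, Psmb3, Psmb5, Psmc1, Psmd2 and Psmd11 also had copies of at least 95% identity. Psme1 exons overlap Emc9 at their ends.

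The other caps were not called. Psme3, which encodes the nuclear PA28 gamma, was at 32.0, 53.8, 57.3 and 29.0 CPM in WT and at 74.6, 50.7, 25.9 and 9.79 CPM in KO (log2 fold change -0.10, SE 0.52, and 0.0083 without WT 3). Psme4 was at 31.2, 33.5, 36.3 and 42.8 CPM in WT and at 29.0, 24.5, 50.5 and 54.0 CPM in KO (log2 fold change 0.14, SE 0.33, and 0.089 without WT 3). Both were more dispersed among KO than among WT samples, and neither group pair was separated.

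Markers of some other cell types were also called higher in KO. Of 15 microglial genes, 14 were called higher in KO, and their summed level was 132 to 294 CPM in WT, 1094 to 2685 in KO and 440 to 17522 in dKO. Endothelial genes (4 of 6 called higher) summed to 214 to 427 CPM in WT, 534 to 3641 in KO and 407 to 2974 in dKO. Mural genes (3 of 5) summed to 251 to 454, 947 to 1651 and 279 to 1626 CPM. Choroid plexus genes (1 of 4) summed to 286 to 4013, 6389 to 24248 and 5347 to 23596 CPM.

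Of 3 tested genes of border macrophages and monocytes 1 was called higher, from sums of 4.40 to 5.85 CPM in WT to 5.29 to 22.3 in KO and 2.38 to 32.9 in dKO. Of the 9 oligodendrocyte genes 6 were called lower, and of 6 precursor genes 1 was called higher and 1 lower (772 to 1621, 509 to 743 and 383 to 925 CPM). No astrocyte gene of 7 (4868 to 11027, 3006 to 7586 and 3479 to 9742 CPM) and no neuronal gene of 8 (141 to 241, 220 to 685 and 216 to 668 CPM) was called. The 5 T cell genes did not pass the filter, at sums of at most 0.291 CPM in WT, 4.73 in KO and 3.40 in dKO, and 1 was at 0 in every WT and every dKO sample. The CD45- gate of the sort is meant to leave out microglia and macrophages. On reanalysis of the sorted cells the paper found no overt CD45+ cells in any genotype. It reports incomplete O1+ purity and allows for a small carry-over of other cell types. The part of these cell types in the PA28 result was not tested.

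The 3 immunoproteasome subunits, which replace the catalytic trio and work with PA28 alpha and beta, rose in the same comparison. Psmb8 was at 3.35, 2.56, 1.15 and 5.54 CPM in WT and at 71.7, 12.6, 54.2 and 37.8 CPM in KO (log2 fold change 3.81, SE 0.63, edgeR adjusted p = 0.0065). Psmb9 rose by 3.36 (SE 0.86, adjusted p = 0.0372), with KO 2 at 5.06 CPM below WT 6 at 6.51 CPM, and Psmb10 by 1.48 (SE 0.28, adjusted p = 0.0114) with no overlap. Their share of the summed CPM of the 6 catalytic subunits was 6.84 ± 2.64% in WT, 22.7 ± 9.66% in KO and 22 ± 12.7% in dKO (SD, n = 4). These sums are not divided by exon length, so they are not shares of transcripts. KO 2, with the least microglial and endothelial signal of the KO samples, also had the smallest share in KO, at 9.75%. Of the PA28 genes, Psme1 was lowest of the KO samples in KO 2 and Psme2 in KO 3. Any link between these values was not tested.

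**Figure D4:**
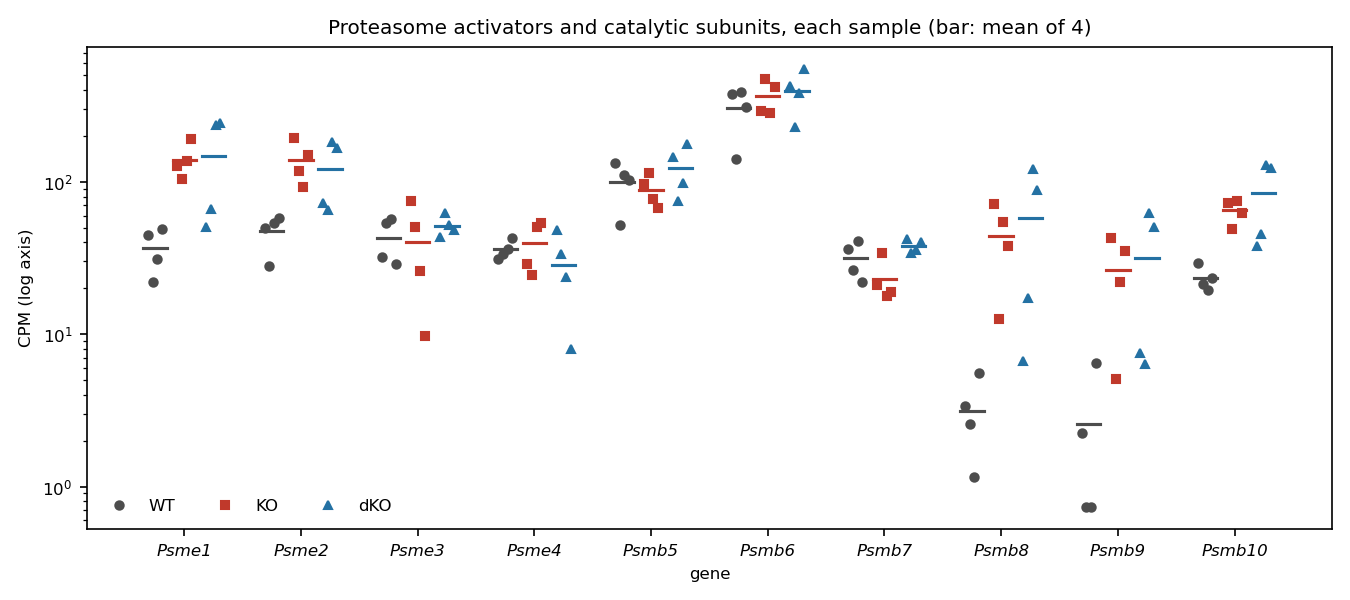
CPM (vertical axis, log scale) of the 4 activator genes, the 3 constitutive and the 3 immunoproteasome catalytic subunits in each sample by genotype, with the mean as a bar. Psme1, Psme2, Psmb8 and Psmb10 are higher in every KO sample than in every WT sample, while Psmb5, Psmb6 and Psmb7 overlap.

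Psme1 and Psme2 are neighbours on chromosome 14 (GRCm38), at chr14:55578123-55581529 on the plus strand and chr14:55587441-55591113 on the minus strand. By these GENCODE positions their starts lie 12990 bases apart, with 5911 bases between the gene bodies. Emc9, a membrane-protein insertase subunit lying between them, had a log2 fold change of -0.03 (SE 0.42, adjusted p = 0.98), and Rnf31, a ubiquitin ligase subunit on the far side of Psme2, -0.04 (SE 0.45). Irf9, the next gene, which encodes a subunit of the interferon-activated factor ISGF3, rose by 2.08 (SE 0.35, edgeR adjusted p = 0.00695). Within this stretch the called genes were thus interspersed with genes that were not called.

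Promoter windows of 250 bases before to 50 after the start were taken from RefSeq (GRCm38.p6), which held 33 of the 40 members in 36 windows. No entry was matched for Psma8, Psmb1, Psmb2, Psmb7, Psmc3, Psmd3 or Psmd7. They were searched on both strands for the core of the interferon-stimulated response element (GAAANNGAAA), bound by ISGF3 and interferon regulatory factors, for the core of the antioxidant response element (TGACNNNGC), the type bound by Nfe2l1, and for the gamma-activated sequence (TTCNNNGAA), bound by STAT dimers. N stands for any base. The windows of Psme1 (chr14:55578244-55578543, plus strand) and of the upstream Psme2 start (chr14:55591052-55591351, minus strand) are shown because these genes rose, and those of Psmb5 (chr14:54617946-54618245, minus strand) and Psmb6 (chr11:70525107-70525406, plus strand) because these catalytic genes carry the other motif and did not. Capitals mark matches to any of the 3 motifs.
Psme1: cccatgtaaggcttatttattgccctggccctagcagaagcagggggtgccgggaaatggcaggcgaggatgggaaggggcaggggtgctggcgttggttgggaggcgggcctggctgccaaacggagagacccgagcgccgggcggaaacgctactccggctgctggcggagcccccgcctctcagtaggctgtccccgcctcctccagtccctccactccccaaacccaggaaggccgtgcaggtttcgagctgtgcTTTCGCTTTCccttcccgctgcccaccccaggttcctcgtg
Psme2: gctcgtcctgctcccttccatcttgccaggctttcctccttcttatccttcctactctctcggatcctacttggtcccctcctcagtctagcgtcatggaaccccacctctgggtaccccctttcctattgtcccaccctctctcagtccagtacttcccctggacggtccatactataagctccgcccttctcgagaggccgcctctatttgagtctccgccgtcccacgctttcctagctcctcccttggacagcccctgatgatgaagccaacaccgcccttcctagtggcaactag
Psmb5: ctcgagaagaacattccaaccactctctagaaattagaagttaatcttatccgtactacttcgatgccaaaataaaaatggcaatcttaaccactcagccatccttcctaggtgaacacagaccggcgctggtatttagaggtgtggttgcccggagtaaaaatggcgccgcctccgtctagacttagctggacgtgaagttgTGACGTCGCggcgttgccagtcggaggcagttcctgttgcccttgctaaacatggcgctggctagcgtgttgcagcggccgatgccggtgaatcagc
Psmb6: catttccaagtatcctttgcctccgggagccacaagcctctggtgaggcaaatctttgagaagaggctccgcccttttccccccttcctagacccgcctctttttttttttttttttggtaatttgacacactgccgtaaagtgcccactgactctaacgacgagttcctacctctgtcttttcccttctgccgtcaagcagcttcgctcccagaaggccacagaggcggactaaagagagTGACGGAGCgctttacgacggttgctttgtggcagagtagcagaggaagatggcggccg

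The capitals in Psme1 are the interferon-type motif read on the opposite strand, at bases 10 to 19 after the RefSeq start. The whole Psme1 window lies downstream of the GENCODE start of the gene, chr14:55578123. The Psme2 window held none of the 3 motifs, nor did that of its other annotated start. Psmb3, Psmd4 and Psmd9 also had the interferon-type motif, and none of the 3 was called. It was present in 4 of the 36 member windows (11.1%) and in 3.44% of all 32851 windows. The capitals in Psmb5 and Psmb6 are the antioxidant-type motif on the gene's own strand, at bases -47 to -39 and -9 to -1. That motif was in 6 member windows (16.7%, against 12.4% of all), namely those of Psmb5, Psmb6, Psmc6, Psmd9, Psmd12 and Psme4. The gamma-activated motif was in the Psmd2 window alone (2.78%, against 8.3% of all). A match describes letters only and is not a site shown to be bound.

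Genes that build or steer the proteasome were compared next. Of 18 further subunits, receptors and assembly factors, 0 were called in KO against WT, with 1 at an unadjusted p below 0.05 and 0 by DESeq2. That gene was Psmg4, a core assembly chaperone, at 17.5, 5.12, 13.2 and 16.1 CPM in WT and 25.6, 35.8, 18.5 and 49.2 CPM in KO (log2 fold change 1.31, SE 0.46, adjusted p = 0.115). Of 8 genes around Nfe2l1, the transcription factor that raises proteasome genes when degradation is impaired, 0 were called, 2 had an unadjusted p below 0.05 and DESeq2 called 0. Nfe2l1 was at 41.3, 59.3, 36.2 and 36.5 CPM in WT and at 66.4, 65.8, 68.0 and 102 CPM in KO. Its KO and WT samples did not overlap, and its estimate of 0.80 (SE 0.29, adjusted p = 0.124) did not pass the threshold.

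The other of the pair was Maff, a small Maf partner, at 2.78 (SE 1.27, adjusted p = 0.221). Of the 10 COP9 signalosome genes, 0 were called, 0 had an unadjusted p below 0.05 and DESeq2 called 0. Their median log2 fold change was -0.31, with 8 of 10 estimates below 0. The lowest was Cops5 at -0.62 (SE 0.36, adjusted p = 0.349).

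In double-mutant against WT oligodendrocytes no member was called by edgeR, in a comparison where 0.175% of all genes were called higher and 0.0169% lower. Psme1 and Psme2 had the largest estimates apart from Psma8 and were the 2 members with an unadjusted p below 0.05, against 7.82% of all genes higher and 4.57% lower by that rule. DESeq2 called both higher and no member lower, against 3.8% and 1.14% of its genes. The WT samples are the same as above, so the comparisons are not independent, and their values are given side by side.

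Psme1 was at 50.3, 66.5, 235 and 242 CPM in dKO 1, 2, 3 and 5 (log2 fold change 2.01, SE 0.55, 95% interval 0.80 to 3.21, edgeR adjusted p = 0.18, DESeq2 adjusted p = 0.00596). Psme2 was at 72.6, 65.3, 182 and 168 CPM (1.35, SE 0.41, 95% interval 0.44 to 2.27, edgeR adjusted p = 0.219, DESeq2 adjusted p = 0.0407). Without WT 3 the estimates were 1.82 and 1.17. For both genes dKO 3 and 5 were high, above most KO samples, while dKO 1 and 2 lay nearer to the highest WT sample. The same split was seen in the immunoproteasome, with Psmb8 at 6.65, 17.2, 121 and 88.0 CPM and Psmb10 at 37.6, 45.1, 128 and 124 CPM.

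It was seen too in endothelial genes, which summed to 407 and 529 CPM in dKO 1 and 2 and to 1922 and 2974 CPM in dKO 3 and 5. The microglial sum was 440, 902, 17522 and 1997 CPM. Mural genes summed to 279, 689, 1356 and 1626 CPM and choroid plexus genes to 5347, 7201, 23596 and 11137 CPM. Genes of border macrophages and monocytes summed to 2.38, 8.66, 32.9 and 21.6 CPM. Astrocyte and neuronal sums did not split in this way. The part of any of these cell types in the values was not tested. Without dKO 3, the sample with by far the most microglial signal, the estimates were 1.69 for Psme1 and 1.09 for Psme2 (adjusted p = 0.359 and 0.434). Psmb8 (4.20, SE 0.90, adjusted p = 0.0941), Psmb9 (3.63, SE 0.99, adjusted p = 0.18) and Psmb10 (1.84, SE 0.44, adjusted p = 0.126) missed the edgeR threshold, and DESeq2 called all 3.

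Over the remaining members the estimates leaned upwards without any call. Of the 14 core genes without Psma8 all 14 estimates were above 0, with a median of 0.37, and 14 of the 17 genes of the 19S particle, with a median of 0.17, while the median of all genes tested was 6.9e-05. Without WT 3 the counts were 13 of 14 (median 0.17) and 9 of 17 (median 0.03). The smallest adjusted p among the 36 members was 0.482. It belonged to Psmd12, a lid subunit named here after its values were seen, at 109, 59.3, 102 and 95.7 CPM in WT and 144, 113, 126 and 148 CPM in dKO, without overlap (0.53, SE 0.28).

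Among the catalytic genes in the same comparison, Psmb5 had an estimate of 0.30 (SE 0.37), Psmb6 of 0.37 (SE 0.39) and Psmb7 of 0.26 (SE 0.29). Psmd14 was at 0.16 (SE 0.38), Psmd4 at 0.21 (SE 0.28) and Psme3 at 0.25 (SE 0.31). The lowest estimates were those of Psme4 (-0.36, SE 0.46), Psmd2, a base scaffold subunit (-0.15, SE 0.30), and Psmd9 (-0.12, SE 0.30). None of these was called. Without WT 3 the estimates were 0.085 for Psmb5, 0.13 for Psmb6, 0.19 for Psmb7, -0.070 for Psmd14, 0.067 for Psmd4, 0.37 for Psme3, -0.39 for Psme4, -0.13 for Psmd2 and -0.30 for Psmd9. Of the 18 further factors 0 were called (1 at an unadjusted p below 0.05, Psmg4 at 1.28, SE 0.44, and 0 by DESeq2). Of the 8 genes around Nfe2l1 0 were called (2 unadjusted, 0 by DESeq2), with Nfe2l1 at 0.77 (SE 0.27, adjusted p = 0.28) and samples at 85.5, 63.1, 78.9 and 69.8 CPM. Of the 10 COP9 genes 0 were called (0 unadjusted, 0 by DESeq2), with Cops5 at -0.82 (SE 0.39, adjusted p = 0.424).

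Double-mutant and Jab1 mutant cells, which differ in p21 and in strain origin, were also compared. No proteasome subunit gene differed by the test, and neither did any gene of the table: 0% of 17716 genes were called higher and 0% lower by edgeR, with 310 higher (1.75%) and 575 lower (3.25%) at an unadjusted p below 0.05. DESeq2 called 20 genes higher (0.115%) and 67 lower (0.384%), none of them a member. No member had an unadjusted p below 0.05. Psmb7 came nearest, at 42.3, 34.0, 35.8 and 40.2 CPM in dKO against 21, 34.3, 17.9 and 18.8 in KO (log2 fold change 0.73, SE 0.33, unadjusted p = 0.0507, adjusted p = 0.968). KO 2 was the single KO sample within the dKO range.

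Psme1 differed by 0.09 (SE 0.51, 95% interval -1.03 to 1.21) and Psme2 by -0.18 (SE 0.41, 95% interval -1.09 to 0.72). Psmd3, a lid subunit, was at 0.48 (SE 0.34) and Psmb5 at 0.47 (SE 0.34), the next highest estimates. The lowest were Psme4 (-0.47, SE 0.51), Psmc6, a base ATPase (-0.38, SE 0.30), and Psmd10, the base chaperone gankyrin (-0.18, SE 0.35). Psmb6 was at 0.12 (SE 0.34), Psmd14 at 0.40 (SE 0.39), Psmd4 at 0.17 (SE 0.28) and Psme3 at 0.36 (SE 0.52).

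As in the comparison with WT, most estimates were above 0, here 34 of 39 with a median of 0.23, against 0.02 for all genes. The dKO samples are shared by both, so this is not a separate observation. Of the 18 further factors 0 were called (1 at an unadjusted p below 0.05, 0 by DESeq2). It was Psmf1, a proteasome inhibitor, at 32.1, 38.3, 32.4 and 41.0 CPM in KO and 71.1, 55.4, 48.4 and 98.3 CPM in dKO (0.93, SE 0.31, adjusted p = 0.9). No immunoproteasome, Nfe2l1-related or COP9 gene had an unadjusted p below 0.05 or was called by either tool.

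Summed over the genes of a particle, the 20S core stood at 2676, 1106, 2710 and 2208 CPM in WT, at 2158, 3160, 1937 and 2830 CPM in KO and at 3355, 1860, 2945 and 3675 CPM in dKO. The means were 2175 ± 749, 2521 ± 571 and 2959 ± 791 CPM (SD, n = 4), and the groups overlapped. Without WT 3 the WT mean of the core was 2531 CPM, next to the KO mean. The 19S base was at 1649 ± 423, 1610 ± 334 and 1831 ± 241 CPM and the lid at 1023 ± 258, 1069 ± 201 and 1248 ± 174 CPM, also overlapping, and the WT means without WT 3 were 1810.4 CPM for the base and 1143 CPM for the lid. WT 3 was the lowest of all 12 samples in each of the 3 sums.

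The summed activators were the exception, with means of 163 CPM in WT, 358 in KO and 350 in dKO. The highest WT sample was at 179 CPM, the lowest KO sample at 297 CPM and the lowest dKO sample at 215 CPM. Most of that sum came from Psme1 and Psme2 in the mutants, at 84.3 ± 24.7, 278 ± 61.1 and 270 ± 165 CPM. The base chaperones Psmd5, Psmd9 and Psmd10 summed to 157 ± 31.3, 147 ± 37.3 and 157 ± 11.3 CPM. The ratio of core to base, from sums not divided by exon length, was 1.30 ± 0.279 in WT, 1.57 ± 0.232 in KO and 1.60 ± 0.331 in dKO. It was 0.95 in WT 3 and 1.24 to 1.61 in the other WT samples.

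**Figure D5:**
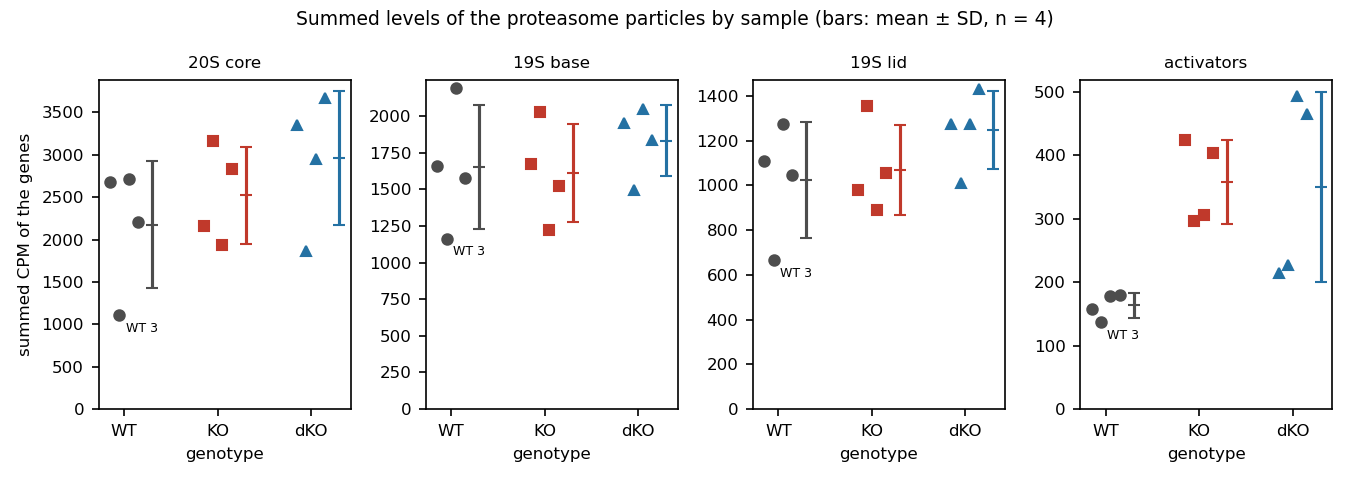
Summed CPM (vertical axis) of the genes of the 20S core, 19S base, 19S lid and activators in each sample by genotype, with mean ± SD beside the points. Core, base and lid overlap between genotypes, with WT 3 lowest of all, while all mutant samples lie above the highest WT sample, at 179 CPM, for the activators.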

How the data were processed

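Gene-level read counts, deposited by the authors without normalization, were used for all 12 samples. Per the labels and methods, libraries were made with the SMART-Seq v4 kit, reads were trimmed with Trimmomatic 0.32, aligned to GRCm38 with STAR 2.5.3a and counted with featureCounts on GENCODE basic genes. The strand and multimapping settings are not given in the sources used here, so members with near-identical copies are named above. Exons of 7 members overlap a gene on the other strand. Besides Psmb7 and Psme1, these are Psma4 (AY074887), Psma5 (1700010K24Rik), Psmc3 (Slc39a13), Psmd3 (Gm12356) and Psmd13 (Sirt3). On the same strand, Psmb5 overlaps Mir686 and Psmd1 overlaps Gm21972. From these counts, CPM were computed with TMM factors, and genes reaching 1 CPM in 4 or more samples were tested with edgeR 4.0.16 (quasi-likelihood, 4 against 4 samples, Benjamini-Hochberg over 17716 genes, threshold 0.05, R 4.3.3). DESeq2 1.42.0 and limma 3.58.1 (voom) served as alternatives, beside other scalings, filters, a replicate block and leaving out each sample. On counts simulated for KO against WT, a larger share of the calls by DESeq2 was false than of those by edgeR or limma-voom. Those counts were drawn with dispersions estimated by edgeR, in a single simulation, so they do not rank the tools on the real data.

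Exon lengths and overlaps came from GENCODE M21, in which all 40 members were found. Named were members called, the 3 highest and 3 lowest estimates of each comparison, the catalytic subunits, Psmd14, Psmd4, the Psme genes, the 3 highest and 3 lowest levels per length, members not tested and, of other lists, genes called with Psmb8, Psmb9, Psmb10, Nfe2l1 and Cops5; other genes were named where a count was small. Members, lists and tests were chosen with earlier results of these data known. A gene of the oligodendrocyte list is not reported here.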

Additional observations from a re-analysis of the deposited data

Results flagged for a closer look

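Of 87 groups of 4 samples compared for the members and other genes described above and for the particle sums, 3 held a sample whose gap to its nearest neighbour took more of the range of the group than Dixon's 95% critical value. Chance alone gives about 1 such group in 20. Psma8 was at 12.6 CPM in KO 4 and at 0 in the other 3 KO samples, so that its estimate against WT (log2 fold change 2.55, SE 2.61) came from that library. In dKO against WT it was 2.63 (SE 2.09). Psmd1 was at 196 CPM in dKO 3, against 140 to 149 CPM in the other dKO samples. Nfe2l1 was at 102 CPM in KO 4, against 65.8 to 68.0 CPM in the other KO samples.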

How the results depend on the processing

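The 2 calls in KO against WT held without WT 3 and under DESeq2, upper-quartile factors, both other filters, a fit of all 12 samples and limma-voom. Leaving out each sample gave 1 to 2 members called higher, 1 (Psme1) without WT 1, KO 1 or KO 4, where Psme2 was at 1.33 to 1.57. With the replicate number as a block, 0 were called (Psme1 2.07, adjusted p = 0.0716, Psme2 1.84, adjusted p = 0.0962). KO and WT share only numbers 1 and 3, so that block rests on few shared samples. Correlations of the deviations of same-numbered samples were between -0.19 and 0.08 (-0.05 and 0.08 for KO against WT). The labels do not say what a number marks, and these few correlations cannot show whether it marks a pairing. In dKO against WT DESeq2 called 2 (Psme1 2.03, Psme2 1.37) in place of 0. With 4 samples a genotype, the spread between samples sets what could be detected.

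The median over the members in KO against WT was -0.01 without WT 3, -0.0052 without KO 2 and -0.08 under limma-voom, against 0.14. Sign counts and medians by particle were added after the data were seen. Among named genes 34 of the alternative estimates changed sign, none of them called, and the cause was not tested. With the block these were, in KO against WT, Psma8 -9.20, Psmb5 0.060, Psmd14 0.11 and Psme3 0.083, and in dKO against KO Psme4 0.045, Psmb6 -0.013 and Psme1 -0.41. Under limma-voom they were Psmd4 -0.084 and Psma8 -1.43 in KO against WT, Psmd2 0.026 in dKO against WT and Psme1 -0.22 in dKO against KO. Without the filter Psmd4 was -0.049 in KO against WT.

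When single samples were left out, estimates in KO against WT ran from -8.81 to 4.17 for Psma8, -0.39 to 0.0099 for Psmb5, -0.60 to 0.0062 for Psmd14, -0.12 to 0.17 for Psmd4, -0.58 to 0.21 for Psme3 and -0.074 to 0.30 for Psme4. In dKO against WT they ran from -0.070 to 0.40 for Psmd14, -0.28 to 0.077 for Psmd2 and -0.30 to 0.026 for Psmd9. In dKO against KO they ran from -0.084 to 0.31 for Psmb6, -0.34 to 0.00078 for Psmd10, -0.25 to 0.39 for Psme1 and -0.42 to 0.038 for Psme2.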
